A study of Mus musculus with 16 samples.

Results

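The genes described here are 9 potassium channel genes that shape the repolarisation of the heart muscle cell: Kcnip2, Kcnd2, Kcnd3, Kcna5, Kcnj2, Kcnj3, Kcnq1, Kcnh2 and Kcnk3. They were taken by symbol from the deposited count tables, which hold 55278 gene symbols after merging of repeated lines, and all 9 were present and passed the filter on low counts. RNA of heart tissue was sequenced from 16 male C57BL/6J mice aged 8 to 12 weeks, with 4 mice in each of 4 groups. Ppara-flox mice carried the floxed Ppara allele, and cardiomyocyte PPARα-deficient mice lacked the lipid-sensing transcription factor PPARα in heart muscle cells. Mice of each genotype were injected intraperitoneally with LPS (lipopolysaccharide, a bacterial cell wall component that sets off systemic inflammation) at 5 mg/kg, or with PBS, the saline in which it was dissolved, and hearts were taken 12 h later. The Cre line that makes the deficient mice, its promoter and a Cre-only control are not named in the labels. The series title places the study in septic cardiomyopathy. The question addressed here is how the RNA of these channels differed after LPS and between genotypes.

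A cardiac action potential ends when potassium leaves the cell through several kinds of channel that open at different voltages and times. In the mouse ventricle the fast transient outward current, carried by Kcnd2 and Kcnd3 pores with the cytoplasmic subunit Kcnip2, dominates early repolarisation. The ultra-rapid, slow and rapid delayed rectifiers are built on Kcna5, Kcnq1 and Kcnh2. Kcnj2 carries the inward rectifier that sets the resting potential, Kcnj3 with Kcnj5 forms the acetylcholine-activated channel best known from atrium and pacemaker cells, and Kcnk3 encodes an acid-sensitive background channel.

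All members except Kcnip2 are pore subunits, and pore subunits carry the potassium selectivity filter, the stretch of the pore loop that distinguishes potassium from sodium. The filter codons of 7 pore genes are shown because they mark what these genes share and where they differ. Each line is coding sequence from the GENCODE transcripts of GRCm38, 5′ to 3′, with the 5 filter codons in capitals.
Kcnd2, codons 370 to 374: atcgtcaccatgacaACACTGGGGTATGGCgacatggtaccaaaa
Kcna5, codons 469 to 473: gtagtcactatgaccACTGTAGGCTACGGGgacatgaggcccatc
Kcnj2, codons 142 to 146: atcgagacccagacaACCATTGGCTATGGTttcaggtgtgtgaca
Kcnj3, codons 143 to 147: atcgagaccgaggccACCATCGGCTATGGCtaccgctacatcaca
Kcnq1, codons 311 to 315: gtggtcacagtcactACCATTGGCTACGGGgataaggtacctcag
Kcnh2, codons 626 to 630: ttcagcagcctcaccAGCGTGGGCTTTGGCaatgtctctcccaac
Kcnk3, first loop, codons 93 to 97: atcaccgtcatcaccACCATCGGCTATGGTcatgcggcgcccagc
Kcnk3, second loop, codons 199 to 203: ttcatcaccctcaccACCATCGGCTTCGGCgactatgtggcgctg
The next to last filter codon is TAT or TAC, for tyrosine, in most of these stretches. It is TTT in Kcnh2 and TTC in the second loop of Kcnk3, both of which encode phenylalanine. Kcnk3 is the member with a pair of pore loops in one subunit. Kcnip2 encodes a calcium-binding protein and holds no filter.

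The promoters of Kcnip2 and Kcna5 are printed as the starts of a gene whose RNA fell after LPS and of a gene whose change did not pass the test. RefSeq promoter sequences for GRCm38.p6 (250 bases before to 50 after the start) were listed for 7 of the 9 members; Kcnq1 and Kcnk3 have no entry. CACCC, the box bound by Kruppel-like factors such as Klf15, is in capitals on either strand, so that a match on the other strand reads GGGTG.
Kcnip2, chr19:45816014-45816313, minus strand: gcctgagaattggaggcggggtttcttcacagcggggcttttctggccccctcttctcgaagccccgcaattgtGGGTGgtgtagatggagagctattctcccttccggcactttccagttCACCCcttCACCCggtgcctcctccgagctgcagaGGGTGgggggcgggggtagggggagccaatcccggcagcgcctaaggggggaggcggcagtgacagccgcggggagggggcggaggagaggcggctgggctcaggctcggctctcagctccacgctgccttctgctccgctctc
Kcna5, chr6:126535506-126535805, minus strand: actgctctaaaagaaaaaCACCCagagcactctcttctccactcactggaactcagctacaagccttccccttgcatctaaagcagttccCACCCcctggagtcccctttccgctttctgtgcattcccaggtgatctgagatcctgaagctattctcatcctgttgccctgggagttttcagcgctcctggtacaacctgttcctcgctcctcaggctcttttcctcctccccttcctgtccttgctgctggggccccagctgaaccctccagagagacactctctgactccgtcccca
The motif matched 4 times in the Kcnip2 window and 2 times in the Kcna5 window. Among the other entries it matched 4 times in Kcnh2, whose entry lies at an internal start of the gene, 3 times in Kcnd3, 1 time each in Kcnd2 and Kcnj2, and 0 times in Kcnj3. It was present in 57.5% of the 32851 promoters of the same length. AGGTCA, the half-site of nuclear receptors such as PPARα, was found on neither strand in any of the 7 windows and in 16.3% of all promoters. These matches describe letters in a short window and were not tied to binding or to the measured changes.

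The tables held 65569134 to 75436023 estimated counts per library. Counts pile up at multiples of 4, so the number of read pairs behind a value may be nearer to the value divided by 4. Each member was counted in every library, from 124 to 913 estimated counts for Kcnd3 up to 3458 to 32742 for Kcnk3. Levels are given as CPM, estimated counts scaled to a common library total with edgeR's TMM factors. The extraction text in the labels speaks of islets, whereas Myh6, the heart myosin heavy chain, had 1258504 to 2780897 counts in each library. The ventricular light chain Myl2 had at least 159789 counts, and of 6 atrial markers Myl7, Sln and Bmp10 had at most 30, 8 and 8 counts. The other atrial markers were detected, with 49 to 135 counts for Myl4, 30 to 201 for Dkk3 and 3888 to 24350 for Nppa. With Myl7, Sln and Bmp10 this low, the libraries held little sign of atrial tissue, and how much atrium was sampled was not tested. The principal components were taken over the most variable genes only. On the first component, flox LPS library 3 (39.6) and deficient LPS library 4 (42.2) lay nearer to the PBS libraries. The other LPS libraries lay at 50.7 to 54. Among PBS libraries, deficient library 4 (-40.9) lay nearer to the LPS libraries than the others (-52.8 to -47.8). The numbers in the table headers run from 957 to 971 and from 1069 to 1075 for PBS libraries and from 1739 to 1769 for LPS libraries, so treatment and whatever that numbering follows cannot be told apart. Labels do not say more of how the 4 mice of a group relate, so p-values measure the spread between these samples.

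Ppara itself was lower in PBS-treated deficient hearts. Its level was 59.3, 37.4, 47.7 and 56.4 CPM in the flox PBS libraries and 11.4, 17.6, 15.1 and 14.2 CPM in the deficient PBS libraries (log2 fold change -1.79 ± 0.28 SE, edgeR adjusted p = 0.00287). After LPS it was 10.1, 7.23, 13.1 and 14.7 CPM in flox and 4.25, 6.32, 11.9 and 9.45 CPM in deficient hearts, and the groups overlapped (log2 fold change -0.50, edgeR adjusted p = 0.651). LPS lowered Ppara in the flox hearts as well (log2 fold change -2.15 ± 0.28 SE, edgeR adjusted p = 1.25e-05), and the genotypes differed less in Ppara after LPS than under PBS by value, although that difference of differences did not pass (edgeR adjusted p = 0.599). Esr1 is the oestrogen receptor gene whose ligand-binding part is fused to Cre in drug-inducible Cre lines. It averaged 3069 CPM in deficient PBS and 83.4 CPM in deficient LPS hearts, against 0.227 and 0.226 CPM in the flox groups. Within deficient hearts Esr1 was thus far lower after LPS (log2 fold change -5.2 ± 0.54 SE, edgeR adjusted p = 1.34e-06). The reason was not tested, and the deficient groups differ in this check of the genotype labels.

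LPS lowered 6 of the 9 genes in both genotypes: Kcnip2, Kcnd2, Kcnj2, Kcnj3, Kcnh2 and Kcnk3. No member was higher, and the fold changes of the other 3 were below 0 without passing the test. Across all 18713 genes tested, 19.1% were called lower and 20.2% higher in flox hearts, and 18.3% lower and 19.4% higher in deficient hearts (edgeR quasi-likelihood test, adjusted p under 0.05). The median log2 fold change of the members was -1.26 in flox and -1.28 in deficient hearts, against 0.01 over all genes in each. For the same 6 genes every LPS library lay below every PBS library of its genotype, a separation found downwards for 18.4% of all genes in each genotype.

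**Figure D1:**
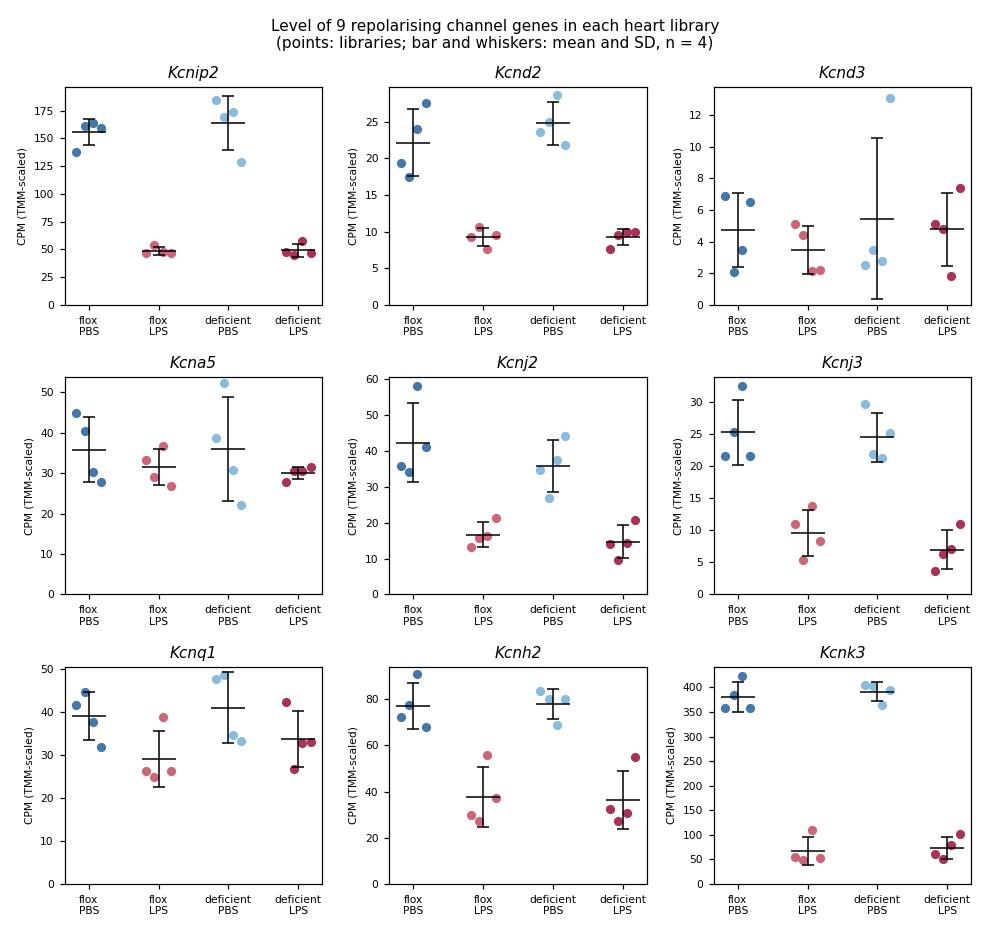
Level of each gene (vertical axis, TMM-scaled CPM, each panel from 0) in the 4 groups; points are libraries, bars and whiskers are mean and SD, n = 4. Kcnip2, Kcnd2, Kcnj2, Kcnj3, Kcnh2 and Kcnk3 show LPS libraries wholly below PBS libraries of the same genotype, whereas Kcnd3, Kcna5 and Kcnq1 overlap.

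In the transient outward group Kcnip2 and Kcnd2 fell, and the change of Kcnd3 did not pass the test. Kcnip2 (chr19:45791839-45816061, minus strand, GRCm38, protein coding), the subunit that brings Kcnd pores to the membrane, was at 138, 161, 164 and 159 CPM in flox PBS hearts and at 46.6, 53.7, 47.4 and 46.6 CPM in flox LPS hearts. It was at 185, 169, 174 and 129 CPM in deficient PBS and at 47.6, 44.9, 57.2 and 46.7 CPM in deficient LPS hearts. The highest LPS value was 57.2 CPM and the lowest PBS value 129 CPM. The means were 155 ± 12.0 and 48.6 ± 3.42 CPM (SD, n = 4) in flox hearts, a 3.20-fold lower level (log2 fold change -1.68 ± 0.11 SE, edgeR adjusted p = 1.14e-08). In deficient hearts they were 164 ± 24.6 and 49.1 ± 5.52 CPM, a 3.35-fold lower level (log2 fold change -1.74 ± 0.11 SE, edgeR adjusted p = 8.75e-09).

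Kcnd2 (chr6:21215503-21729805, plus strand), the main transient outward pore gene of mouse ventricle, was at 19.3, 17.5, 24.0 and 27.6 CPM in flox PBS hearts and at 9.23, 10.6, 7.59 and 9.53 CPM in flox LPS hearts. In deficient hearts it was at 23.6, 25.0, 28.6 and 21.8 CPM with PBS and at 7.56, 9.57, 9.90 and 10 CPM with LPS. No LPS library reached the level of any PBS library. Its log2 fold change was -1.26 ± 0.15 SE in flox (2.39-fold lower, edgeR adjusted p = 5.51e-06) and -1.42 ± 0.15 SE in deficient hearts (2.67-fold lower, edgeR adjusted p = 1.74e-06).

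Kcnd3 (chr3:105452330-105674002, plus strand), the other pore gene of this current, was the least abundant member and the most scattered. It ranged from 2.06 to 6.90 CPM in flox PBS, 2.13 to 5.13 CPM in flox LPS, 2.50 to 13.1 CPM in deficient PBS and 1.80 to 7.39 CPM in deficient LPS hearts. All 4 groups overlapped. The 95% interval of its log2 fold change ran from -1.64 to 0.74 in flox (edgeR adjusted p = 0.562) and from -1.38 to 0.99 in deficient hearts (edgeR adjusted p = 0.814), so a fall as large as that of Kcnd2 lies within the flox interval. In deficient hearts the direction itself was not settled: the log2 fold change of -0.20 became 0.67 against the deficient PBS libraries of the lower header numbers alone.

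Of the delayed rectifier genes, Kcnh2 fell, and the changes of Kcna5 and Kcnq1 did not pass the test. Kcnh2 (chr5:24319589-24351604, minus strand), the pore of the rapid delayed rectifier, was at 72.1, 77.4, 90.7 and 68.0 CPM in flox PBS and at 29.9, 27.4, 56.0 and 37.2 CPM in flox LPS hearts. The deficient libraries held 83.5, 80.2, 68.6 and 79.9 CPM with PBS and 32.4, 27.4, 30.8 and 54.9 CPM with LPS. The highest LPS values, 56.0 and 54.9 CPM, came from flox library 3 and deficient library 4. The same libraries stood nearer to PBS on the first principal component. Kcnh2 was 2.05-fold lower in flox (log2 fold change -1.03 ± 0.22 SE, edgeR adjusted p = 0.00126) and 2.14-fold lower in deficient hearts (log2 fold change -1.10 ± 0.22 SE, edgeR adjusted p = 0.000789). Without those 2 libraries the values were -1.3 and -1.37.

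Kcna5 (chr6:126532551-126535412, minus strand), the ultra-rapid pore gene, was at 44.8, 40.3, 30.2 and 27.8 CPM in flox PBS and at 33.3, 28.9, 36.7 and 26.7 CPM in flox LPS hearts. The deficient libraries held 38.7, 52.2, 30.7 and 22 CPM with PBS and 27.8, 30.4, 30.4 and 31.5 CPM with LPS. The groups overlapped, and the log2 fold change was -0.19 in flox (95% interval -0.64 to 0.26, edgeR adjusted p = 0.515) and -0.26 in deficient hearts (-0.71 to 0.19, edgeR adjusted p = 0.357). Within PBS hearts of both genotypes, the libraries numbered 957 to 971 (38.7 to 52.2 CPM) all lay above those numbered 1069 to 1075 (22 to 30.7 CPM). Against the first of these sets alone, the LPS effect was -0.45 in flox (edgeR adjusted p = 0.0352) and -0.60 in deficient hearts (edgeR adjusted p = 0.00755). Against the second set alone it was 0.11 (edgeR adjusted p = 0.637) and 0.18 (edgeR adjusted p = 0.413), so neither a direction nor a call for Kcna5 was independent of the PBS libraries used.

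Kcnq1 (chr7:143106362-143427042, plus strand), the slow delayed rectifier pore gene, was at 41.8, 44.8, 37.8 and 31.9 CPM in flox PBS and at 26.3, 24.9, 39.0 and 26.4 CPM in flox LPS hearts. Deficient hearts had 47.7, 48.6, 34.6 and 33.2 CPM with PBS and 42.5, 26.7, 32.8 and 33.1 CPM with LPS. In flox hearts 3 of the 4 LPS libraries were below all flox PBS libraries, and library 3 was within the PBS range. The log2 fold change was -0.42 ± 0.18 SE in flox (95% interval -0.81 to -0.04, edgeR adjusted p = 0.0673) and -0.28 ± 0.18 SE in deficient hearts (-0.66 to 0.10, edgeR adjusted p = 0.231). Without flox LPS library 3 the flox value passed (-0.61, edgeR adjusted p = 0.00894). As with Kcna5, the PBS libraries numbered 957 to 971 (41.8 to 48.6 CPM) lay above those numbered 1069 to 1075 (31.9 to 37.8 CPM). The flox value was -0.58 against the first set (edgeR adjusted p = 0.0386) and -0.26 against the second (edgeR adjusted p = 0.367).

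Kcne1, the auxiliary subunit that slows the opening of the Kcnq1 channel, fell in both genotypes. Its level was 6.02, 7.22, 3.06 and 2.82 CPM in flox PBS and 0.682, 0.502, 1.29 and 0.536 CPM in flox LPS hearts (log2 fold change -2.66 ± 0.38 SE, edgeR adjusted p = 3.29e-05). In deficient hearts it was 5.69, 5.73, 2.67 and 3.53 CPM with PBS and 0.713, 0.598, 0.610 and 0.894 CPM with LPS (log2 fold change -2.64 ± 0.38 SE, edgeR adjusted p = 3.82e-05). Its PBS libraries parted by header number too, and all 16 values kept LPS below PBS. Per kilobase of exon, the ratio of Kcne1 to Kcnq1 was 0.151 ± 0.0508 in flox PBS and 0.0317 ± 0.00779 in flox LPS hearts, and 0.134 ± 0.0249 and 0.027 ± 0.00578 in the deficient groups (SD, n = 4).

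The inward rectifier genes both fell. Kcnj2 (chr11:111066164-111076821, plus strand), the main pore gene of the resting inward rectifier, was at 35.9, 34.2, 58.2 and 41.1 CPM in flox PBS and at 13.2, 15.8, 16.4 and 21.4 CPM in flox LPS hearts. Deficient hearts had 34.7, 26.8, 37.5 and 44.3 CPM with PBS and 14.2, 9.62, 14.4 and 20.8 CPM with LPS. The lowest PBS value, 26.8 CPM, was still above the highest LPS value, 21.4 CPM. Kcnj2 was 2.53-fold lower in flox (log2 fold change -1.34 ± 0.23 SE, edgeR adjusted p = 0.000164) and 2.43-fold lower in deficient hearts (log2 fold change -1.28 ± 0.23 SE, edgeR adjusted p = 0.000259). Kcnj12, a pore gene that assembles with Kcnj2, had log2 fold changes of -1.66 ± 0.20 and -1.15 ± 0.20 SE (edgeR adjusted p = 6.89e-06 and 0.000234). The Kcnj2 to Kcnj12 ratio per kilobase was 0.759 ± 0.128 and 0.987 ± 0.196 in flox PBS and LPS hearts, and 0.652 ± 0.163 and 0.588 ± 0.136 in the deficient groups.

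Kcnj3 (chr2:55435970-55598145, plus strand), a pore gene of the acetylcholine-activated channel, was at 21.6, 25.3, 32.4 and 21.6 CPM in flox PBS and at 10.9, 5.32, 13.7 and 8.29 CPM in flox LPS hearts. The values in deficient hearts were 29.6, 21.8, 21.3 and 25.2 CPM with PBS and 3.62, 6.22, 7.04 and 10.9 CPM with LPS. The groups did not overlap in either genotype. It was 2.64-fold lower in flox (log2 fold change -1.40 ± 0.29 SE, edgeR adjusted p = 0.00106) and 3.53-fold lower in deficient hearts (log2 fold change -1.82 ± 0.30 SE, edgeR adjusted p = 0.000124). Its partner Kcnj5 was lower as well, with log2 fold changes of -1.57 ± 0.26 and -1.33 ± 0.26 SE (edgeR adjusted p = 0.00014 and 0.000616). The Kcnj3 to Kcnj5 ratio per kilobase spread from 0.317 to 0.853 in flox LPS hearts, against 0.413 to 0.449 in flox PBS hearts. An annotated long non-coding RNA gene on the opposite strand covers 31.08% of the Kcnj3 exon bases, and the strand setting of the authors' counting is not given in the sources used here.

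Kcnk3 (chr5:30588170-30625271, plus strand), the background channel gene, had the largest fall among the 9 in each genotype by fold change. It was at 358, 384, 423 and 358 CPM in flox PBS and at 54.3, 49.6, 109 and 53.0 CPM in flox LPS hearts. In deficient hearts it was at 404, 403, 364 and 395 CPM with PBS and at 62.0, 50.9, 79.2 and 102 CPM with LPS. The PBS libraries lay close together, while flox LPS library 3 and deficient LPS library 4 were again the highest of their groups. Kcnk3 was 5.74-fold lower in flox (log2 fold change -2.52 ± 0.24 SE, edgeR adjusted p = 4.08e-07) and 5.32-fold lower in deficient hearts (log2 fold change -2.41 ± 0.24 SE, edgeR adjusted p = 7.04e-07). Without those 2 libraries the values were -2.87 and -2.62. Gm9899, a transcript on the opposite strand that shares 229 exon bases (5.76% of the Kcnk3 exons), averaged 33.6 CPM in flox PBS and 4.02 CPM in flox LPS hearts, and 37.3 and 7.61 CPM in the deficient groups. Reads of the shared stretch could be counted for either gene if strand was not used.

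Marker sums of cardiomyocytes and of smooth muscle and pericytes were lower after LPS alongside these falls, though not every marker in them was. The leukocyte and atrial sums in flox hearts and the endothelial sum in deficient hearts were also lower without overlap. Single markers of other cell types were not uniformly lower. Of 4 ventricular cardiomyocyte markers, 1 was higher and 2 lower in flox hearts (median log2 fold change -0.28). In deficient hearts 2 were higher and 1 lower (median 0.09), though their summed level was lower in both genotypes. Of 6 atrial markers 3 were tested, and 2 were lower in each genotype. The 6 summed to 99.1 to 156 CPM in flox PBS and 59.1 to 77.4 CPM in flox LPS hearts. In deficient hearts they summed to 188 to 330 CPM with PBS and 112 to 203 CPM with LPS. The summed level of 8 cardiomyocyte markers ranged from 51559 to 56534 CPM in flox PBS and from 31605 to 36503 CPM in flox LPS hearts, and 7 of the 8 fell (median log2 fold change -0.40, lowest -1.11). In deficient hearts the sums were 48351 to 55431 CPM and 34683 to 38357 CPM, and 5 of the 8 fell (median -0.34). The 6 smooth muscle and pericyte markers summed to 739 to 786 CPM and 359 to 430 CPM in flox PBS and LPS hearts, with 5 lower, and to 681 to 761 CPM and 343 to 376 CPM in the deficient groups, with 4 lower. Endothelial marker sums were 795 to 881 and 741 to 817 CPM in flox hearts and 754 to 930 and 673 to 709 CPM in deficient hearts, with 1 of 5 lower in each genotype. Fibroblast marker sums were 568 to 620 and 516 to 688 CPM in flox hearts and 547 to 598 and 611 to 691 CPM in deficient hearts, with 1 of 5 higher and 3 lower in each genotype. Leukocyte marker sums were 159 to 180 and 88.8 to 132 CPM in flox hearts and 172 to 199 and 101 to 176 CPM in deficient hearts, with 4 of 7 higher and 2 lower in each genotype. Th, a marker of sympathetic neurons, was at 0 in all libraries. In bulk RNA, fewer cells of a type and less RNA per cell cannot be told apart, and the part of these marker shifts in the channel values was not tested.

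**Figure D2:**
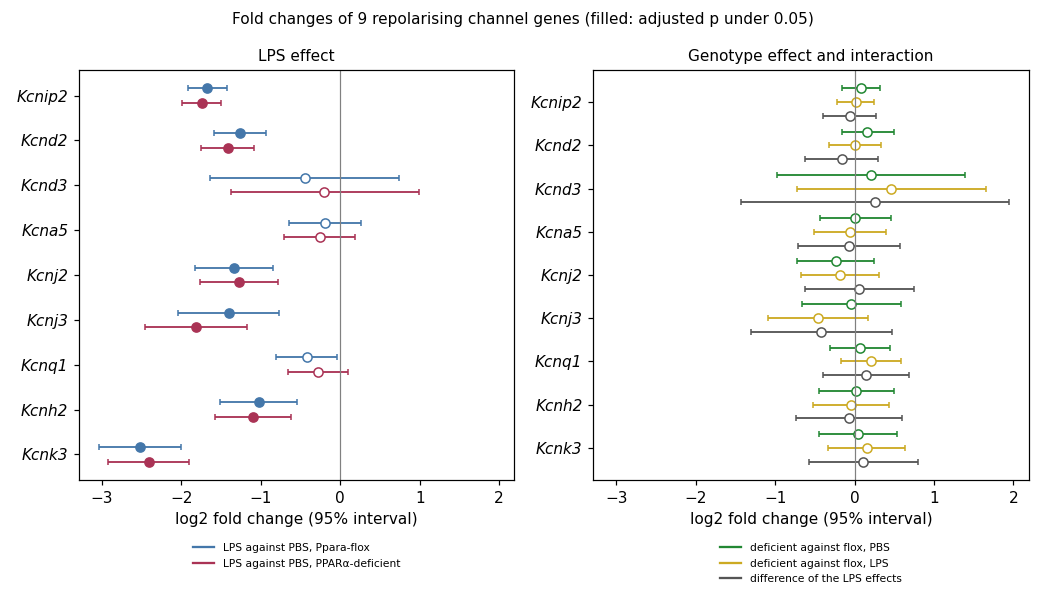
Log2 fold changes with 95% intervals (horizontal axis) for the 9 genes; left, LPS against PBS in each genotype, and right, deficient against flox under PBS and LPS and the difference of the LPS effects. Filled points have an adjusted p under 0.05: the same 6 genes on the left in both genotypes, and none on the right.

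No difference between genotypes passed the test for any of the 9 genes. Under PBS, edgeR called 0 of 9 members and 0.433% of all genes. At an unadjusted p under 0.05 it counted 0 of 9 members and 1042 of all 18713 genes. After LPS, edgeR called 0 of 9 members and 1.23% of all genes, with 0 of 9 members and 1709 genes at an unadjusted p under 0.05. DESeq2 and limma-voom also called 0 of 9 members in each comparison. With shares this low, a count of 0 of 9 says little about these members in particular. The bounds on a difference depended on the gene. For Kcnip2 the log2 difference of deficient from flox hearts was 0.08 under PBS (95% interval -0.16 to 0.32) and 0.02 after LPS (-0.22 to 0.25). For Kcnd2 it was 0.16 (-0.16 to 0.49) and 0.00 (-0.32 to 0.33), and for Kcnk3 it was 0.04 (-0.45 to 0.53) and 0.15 (-0.34 to 0.64). The intervals allow differences up to these bounds, and the missed threshold does not show that the genotypes were alike.

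Between genotypes Kcnh2 differed by 0.02 under PBS (95% interval -0.45 to 0.49) and -0.05 after LPS (-0.52 to 0.43), Kcnj2 by -0.24 (-0.72 to 0.24) and -0.18 (-0.67 to 0.31), and Kcna5 by 0.01 (-0.44 to 0.46) and -0.06 (-0.51 to 0.39). Kcnq1 differed by 0.07 (-0.31 to 0.45) and 0.21 (-0.17 to 0.59). Kcnj3, with its deeper LPS value in deficient hearts, differed by -0.04 under PBS (-0.66 to 0.58) and -0.46 after LPS (-1.09 to 0.17, edgeR adjusted p = 0.734). Kcnd3 had the widest intervals, -0.98 to 1.39 under PBS and -0.73 to 1.65 after LPS. Of the cell type markers tested, 1 of 8 cardiomyocyte, 1 of 3 atrial and 1 of 4 ventricular markers were called higher in deficient hearts after LPS. Over all genes 1.23% were called in either direction there, and under PBS no marker was called. The atrial sums were higher in deficient hearts under both treatments without overlap. The part of these marker differences in the channel values was not tested.

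The size of the LPS effect was compared between genotypes by the interaction term. None of the 9 members passed by edgeR, and 0 of 9 had an unadjusted p under 0.05; DESeq2 and limma-voom also called 0 of 9. Of all 18713 genes, 0% were called by edgeR, with 1075 at an unadjusted p under 0.05, 55 called by DESeq2 and 0 by limma-voom. The difference of the LPS effects was -0.06 for Kcnip2 (95% interval -0.40 to 0.27), -0.16 for Kcnd2 (-0.62 to 0.30), 0.11 for Kcnk3 (-0.58 to 0.80) and -0.42 for Kcnj3 (-1.30 to 0.47). The LPS and genotype comparisons share groups, so the fold changes in the 2 genotypes are given side by side only.

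Levels between genes were compared per kilobase of merged exons. In flox PBS hearts Kcnk3 stood highest at 95.8 ± 7.73 CPM per kilobase (SD, n = 4), followed by Kcnip2 at 44.7 ± 3.45 and Kcnh2 at 15.9 ± 2.04. Kcna5 (12.5 ± 2.82), Kcnq1 (9.55 ± 1.37) and Kcnj2 (7.77 ± 2.01) followed, each overlapping its neighbour in that order, and Kcnh2 also overlapped Kcna5. Kcnj3 (4.84 ± 0.971) and Kcnd2 (4.29 ± 0.893) overlapped each other, and Kcnd3 was lowest at 0.494 ± 0.244. In flox LPS hearts Kcnk3 (16.7 ± 7.10) and Kcnip2 (14.0 ± 0.984) overlapped at the top, and Kcna5 (11.0 ± 1.57) came next, above Kcnh2 (7.77 ± 2.68) and Kcnq1 (7.12 ± 1.61), with ranges that overlapped both (9.32 to 12.8 for Kcna5, 5.65 to 11.6 for Kcnh2 and 6.07 to 9.53 for Kcnq1). Deficient hearts gave the same top places, with Kcnk3 at 98.5 ± 4.78 and Kcnip2 at 47.3 ± 7.06 under PBS, and 18.5 ± 5.63 and 14.1 ± 1.59 after LPS. With the longest transcript as the length, Kcna5 and Kcnq1 changed places in both PBS groups and in deficient LPS hearts, and Kcnh2 and Kcnq1 changed places in flox LPS hearts.

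The makeup of the 8 pore genes, each as a share of their summed CPM per kilobase, is given without a test. Kcnk3 was 63.4% ± 1.22 in flox PBS and 32.8% ± 4.73 in flox LPS hearts, and 64.1% ± 1.63 and 35.7% ± 4.32 in the deficient groups (SD, n = 4). Kcna5 was 8.31% ± 2.03 and 22.6% ± 3.37 in flox hearts and 8.08% ± 2.52 and 21.0% ± 3.72 in deficient hearts. Kcnq1 was 6.33% ± 0.885 and 14.4% ± 0.425 in flox hearts, and 6.48% ± 0.948 and 16.5% ± 3.86 in deficient hearts. Kcnh2 was 10.5% ± 0.514 and 15.5% ± 1.89 in flox hearts although its own level fell, since shares add up to the whole and Kcnk3 fell further. The ratio of Kcnk3 to Kcna5 per kilobase was 7.99 ± 2.02 in flox PBS and 1.49 ± 0.438 in flox LPS hearts, and 8.63 ± 3.11 and 1.76 ± 0.476 in the deficient groups.

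**Figure D3:**
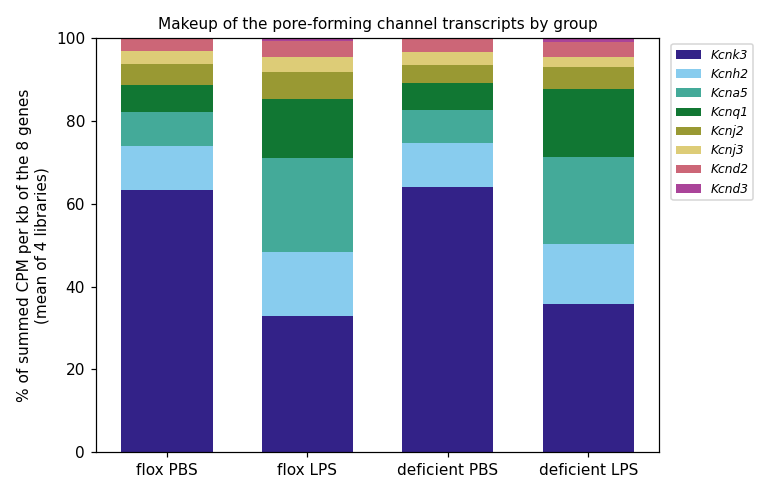
Mean share of each of the 8 pore genes in their summed CPM per kilobase (vertical axis, percent, n = 4 libraries a group). The Kcnk3 share is 63.4% in flox PBS and 32.8% in flox LPS hearts, and the Kcna5 and Kcnq1 shares are larger in both LPS groups.

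The ratio of Kcnip2 to its pore partner Kcnd2 per kilobase was 8.51 to 13.7 in flox PBS and 7.24 to 9.25 in flox LPS hearts, and 8.75 to 11.6 and 6.89 to 9.34 in the deficient groups, so the ranges overlapped in both genotypes. The Kcne1 to Kcnq1 ratios did not overlap between treatments: 0.103 to 0.205 and 0.0257 to 0.0422 in flox hearts, and 0.0983 to 0.152 and 0.0214 to 0.0344 in deficient hearts.

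**Figure D4:**
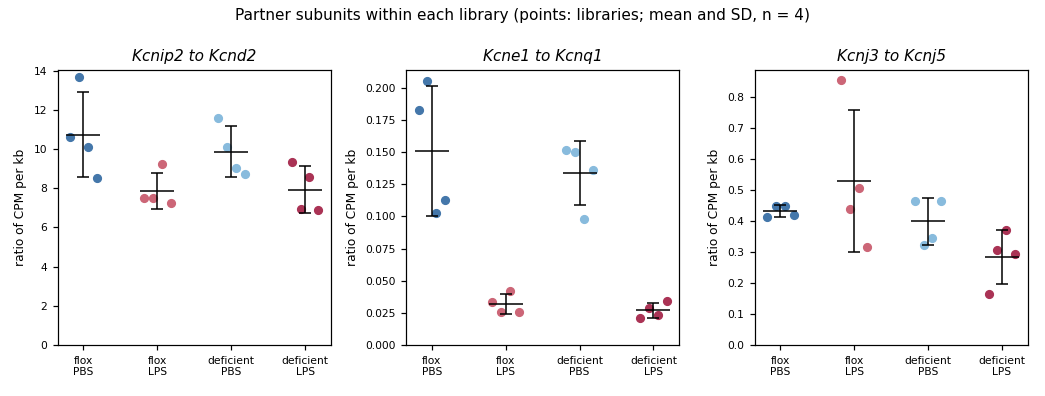
Ratio of CPM per kilobase between partner subunits (vertical axis, from 0) in each library; points are libraries, bars and whiskers are mean and SD, n = 4. Kcne1 to Kcnq1 is 0.151 in flox PBS and 0.0317 in flox LPS hearts, whereas the Kcnip2 to Kcnd2 ranges overlap.

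The other genes of the same machinery were read from 3 further lists. Of 23 other potassium channel pore genes, 21 were tested: 12 were lower and 0 higher in flox hearts (median log2 fold change -0.88), and 9 were lower and 1 higher in deficient hearts (median -1.05). Among all genes tested, 19.1% were called lower and 20.2% higher in flox hearts, and 18.3% lower and 19.4% higher in deficient hearts. Kcnn2, a calcium-activated channel gene, fell from 14.4 ± 1.94 to 2.91 ± 0.77 CPM in flox hearts (log2 fold change -2.30 ± 0.26 SE, edgeR adjusted p = 2.56e-06). Kcna1 had a log2 fold change of -2.62 ± 0.39 SE in flox hearts (edgeR adjusted p = 4.52e-05), from 1.40 to 0.227 CPM. Kcng2, which modifies other voltage-gated pores, was 108 ± 10.1 CPM with PBS and 61.9 ± 9.87 CPM with LPS in flox hearts (log2 fold change -0.80 ± 0.11 SE, edgeR adjusted p = 3.02e-05), and -0.45 ± 0.11 SE in deficient hearts (edgeR adjusted p = 0.00426). Kcnk2, a stretch-sensitive background channel gene, was at 1.35 to 2.07 CPM in flox PBS and from 0 to 0.304 CPM in flox LPS hearts, with no read in 1 library (log2 fold change -3.29 ± 0.66 SE, edgeR adjusted p = 8e-04). Kcnc4, a fast delayed rectifier pore gene, had the smallest interaction p of this list together with Kcng2 (log2 difference 1.3 ± 0.57 and 0.35 ± 0.16 SE), and neither passed (edgeR adjusted p = 0.851 and 0.862). Kcnd1, another Kcnd pore gene at 0.566 CPM in deficient PBS and 1.12 CPM in deficient LPS hearts, was the gene that rose (log2 fold change 0.99 ± 0.33 SE, edgeR adjusted p = 0.0277); its flox value was 0.70 (edgeR adjusted p = 0.109).

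Of 16 auxiliary subunit genes, 11 were tested, with 1 higher and 2 lower in flox hearts (median -0.29) and 2 higher and 2 lower in deficient hearts (median -0.18). Over all genes the called shares were 20.2% higher and 19.1% lower in flox and 19.4% and 18.3% in deficient hearts. Kcne4, an inhibitory partner of Kcnq1 and some Kcna pores, rose. It was at 3.56, 2.11, 2.64 and 2.16 CPM in flox PBS and at 19.3, 19.4, 23.5 and 21.2 CPM in flox LPS hearts, a 7.97-fold higher level (log2 fold change 2.99 ± 0.16 SE, edgeR adjusted p = 1.14e-09). In deficient hearts it was at 3.96, 3.01, 3.86 and 3.10 CPM with PBS and at 18.8, 19.3, 19.5 and 19.0 CPM with LPS (log2 fold change 2.46 ± 0.16 SE, edgeR adjusted p = 7.71e-09). Kcne4 and Kcne1, both partners of Kcnq1, therefore moved in opposite directions. The Kcne4 rise was smaller in deficient hearts by value, and that interaction did not pass (-0.54 ± 0.21 SE, edgeR adjusted p = 0.815). Kcnmb1, the smooth muscle subunit of the large-conductance channel, fell (log2 fold changes -1.72 and -1.62, edgeR adjusted p = 0.000262 and 0.00045) along with the smooth muscle markers given above. Kcnab2, a cytoplasmic subunit of Kcna pores, rose after LPS in deficient hearts (log2 fold change 0.90 ± 0.23 SE, edgeR adjusted p = 0.00458), and its LPS effect in flox hearts was 0.44 (edgeR adjusted p = 0.138); the interaction did not pass (edgeR adjusted p = 0.989).

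All 8 scaffold and transcription factor genes were tested. In flox hearts 1 was higher and 3 lower (median -0.19), and in deficient hearts 2 were higher and 2 lower (median -0.25), where 18.3 to 20.2% of all genes were called in a direction. Klf15, a factor known to drive Kcnip2 transcription in mouse heart, was at 77.5, 71.5, 76.5 and 56.6 CPM in flox PBS and at 39.0, 36.3, 42.9 and 40.0 CPM in flox LPS hearts (log2 fold change -0.83 ± 0.20 SE, edgeR adjusted p = 0.0033). In deficient hearts its values overlapped, from 42.1 to 95.3 CPM with PBS and from 45.8 to 67.3 CPM with LPS (log2 fold change -0.39 ± 0.20 SE, edgeR adjusted p = 0.141). Etv1, a factor of fast-conducting heart muscle, fell in both genotypes (-0.64 ± 0.13 and -1.19 ± 0.13 SE, edgeR adjusted p = 0.000898 and 2.48e-06), and its interaction of -0.55 ± 0.18 SE did not pass (edgeR adjusted p = 0.712). Irx4, a ventricular factor, was at 21.6 to 35.0 CPM in flox LPS and at 36.8 to 47.8 CPM in deficient LPS hearts, and that genotype difference did not pass (log2 fold change 0.67 ± 0.16 SE, edgeR adjusted p = 0.0561). Dlg1, a scaffold of Kcnj2 and Kcna channels, fell by 0.56 and 0.57 on the log2 scale (edgeR adjusted p = 0.00581 and 0.00498), and Hey2, a ventricular repressor, rose by 0.70 and 0.61 (edgeR adjusted p = 0.0168 and 0.0361). No gene of the 3 lists was called between genotypes or in the interaction by edgeR; at an unadjusted p under 0.05 the interaction counted 2, 1 and 2 genes.

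**Figure D5:**
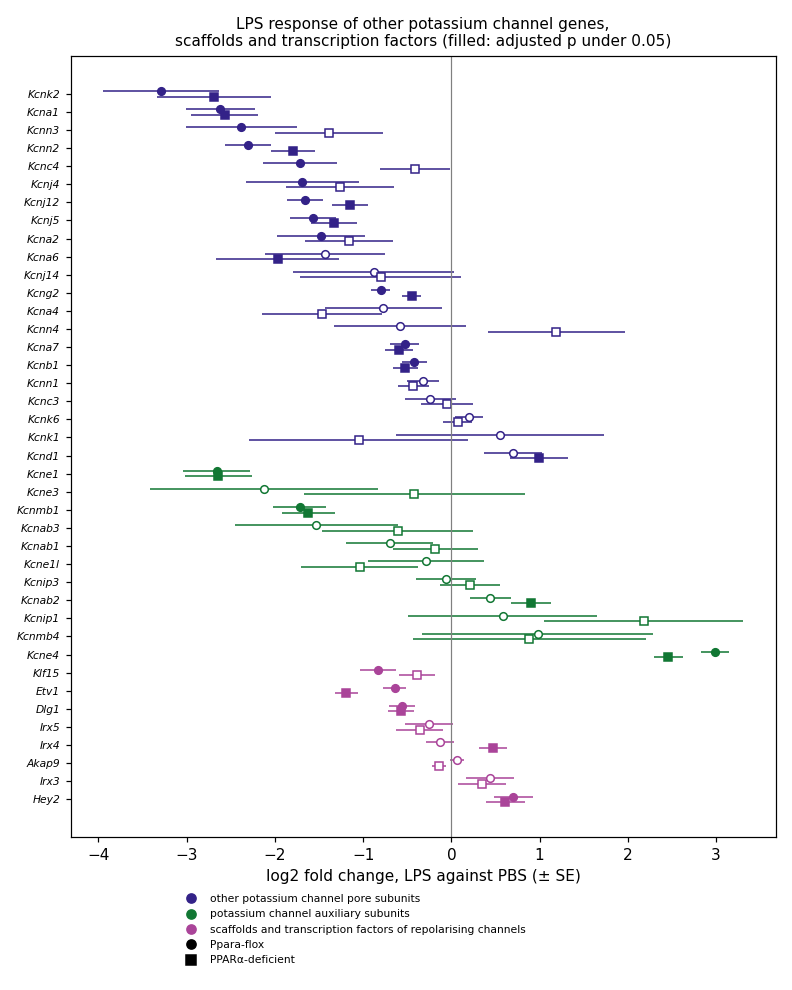
Log2 fold change of LPS against PBS with SE (horizontal axis) for the tested genes of the 3 further lists; circles are flox and squares deficient hearts, filled where the adjusted p is under 0.05. Kcne4 stands highest at 2.99 in flox hearts, and Kcne1 lies at -2.66.

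The nearest genes to each called member were sought by the root mean square difference over 16 libraries of log2 CPM centred on the flox PBS mean, among 8522 genes of sufficient level. Akap1 lay nearest to Kcnip2 at 0.196, followed by Rassf3 (0.209), Car14 (0.213), Ivns1abp (0.219) and Ptprm (0.222). Tmem65, Efcab2 and Ppm1l lay nearest to Kcnd2 (0.195 to 0.205), Pde4a, Asb14 and Tbc1d16 to Kcnj2 (0.264 to 0.288), and Adamts10, Syne1 and Dusp18 to Kcnj3 (0.342 to 0.362). Strip2, Cnst and Ptprs lay nearest to Kcnh2 (0.182 to 0.198), and Asb15, Fbxl22 and Abca8a to Kcnk3 (0.201 to 0.262). Between members the closest pairs were Kcna5 with Kcnq1 (0.264), Kcnip2 with Kcnd2 (0.362) and Kcnj2 with Kcnh2 (0.393). These distances are not scaled for the size of a change, so genes that moved little, such as Kcna5 and Kcnq1, can lie close. They were taken over the same libraries and were not tested.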

How the data were processed

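Heart RNA of 16 mice was made into libraries with a stranded kit, per the labels. Each deposited table gives expected counts (estimated counts) per gene symbol as the authors made them, as whole numbers not scaled between samples. Tools listed without roles in the submitters' processing notes are StringTie 1.3.3b, fastp 0.23.2, DESeq2 1.30.1 and HISAT, with build GRCm38; counter, annotation and strand setting are not given in the sources used here. Of 55421 lines, 116 repeated symbols were summed and 27 date-like symbols (0.0644 to 0.0861% of counts) were left out, giving 55278 symbols. Counts were rounded to whole numbers. Totals were 65569134 to 75436023 (16392284 to 18859006 after division by 4), and 22.48 to 29.8% came from the mitochondrial genome. Among the members Kcnd3 had the fewest counts on average and the largest SE, and the cause of its spread was not tested.

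Tests used edgeR 4.0.16 in R 4.3.3: TMM factors, filterByExpr, 4 group means over 16 libraries, glmQLFit and glmQLFTest, with Benjamini-Hochberg adjustment over 18713 genes and calls at adjusted p under 0.05. SE is the log2 fold change over the square root of F. Alternatives were DESeq2 1.42.0, limma-voom (limma 3.58.1), other scalings, filters, groups and left-out libraries. The edgeR fit of each comparison was run on simulated counts, and the other steps were not. Lengths and coordinates came from GENCODE for GRCm38; 1 filter stretch is not reported here. Replicates differed beyond counting noise. Same-numbered libraries did not deviate together (correlation of deviations -0.07 to 0.07 over 24 pairs), so numbers were not taken as pairs.

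Members and lists were chosen with earlier results of these data known. Named genes were the 9 members, Ppara and Esr1, and per further list up to 6 with the smallest adjusted p in flox LPS and up to 2 in the interaction; Kcnd1 was named after its values were seen.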

Additional observations from a re-analysis of the deposited data

Results flagged for a closer look

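The groups of 4 libraries were screened for a library whose gap to its nearest neighbour, as a share of the group's range, exceeded Dixon's 95% critical value, which chance passes in about 1 in 20 groups; 36 groups of the 9 genes were screened and 4 were marked. Kcnip2 in flox LPS library 2 was 53.7 CPM, where the others were 46.6 to 47.4 CPM. Kcnd3 in deficient PBS library 4 was 13.1 CPM, against 2.5 to 3.48 CPM. Kcnq1 in flox LPS library 3 was 39.0 CPM, against 24.9 to 26.4 CPM, and Kcnk3 in the same library was 109 CPM, against 49.6 to 54.3 CPM. That library was also the one nearest to the PBS libraries on the first principal component among flox LPS libraries (39.6), and its part in these values was not tested.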

How the results depend on the processing

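All 6 called members kept their direction and their call in both LPS comparisons under every alternative run (132 of 132 values in each), and 6 to 8 members were called in flox and 6 to 7 in deficient hearts. Kcnq1 in flox hearts also passed with upper-quartile scaling (-0.48), DESeq2 (-0.44), a minimum of 1 CPM in 8 libraries (-0.44), without flox LPS replicate 3 (-0.61) or flox PBS replicate 4 (-0.51), and without flox LPS replicate 3 and deficient LPS replicate 4 together (-0.60). Genes called between genotypes numbered 81 under PBS and 183 with DESeq2. After LPS they numbered 231, 444 with DESeq2 and 141 with the libraries of those groups alone. In the interaction they numbered 0, and 55 with DESeq2, 4 with the 1 CPM minimum, 4 with counts divided by 4, 5 without flox LPS replicate 4 and deficient LPS replicate 3, and 0 to 4 without 1 library. With the replicate block, 7162 and 6859 genes and the same count of 6 members were called after LPS, and no member was called between genotypes.

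Uncalled values near 0 changed sign, and the cause was not tested. Chosen after seeing the data were the header-number sets and both pairs of left-out LPS libraries. In the LPS comparisons Kcna5 was 0.11 and 0.18 against PBS libraries numbered above 1000, and deficient Kcnd3 was 0.67 against those below 1000, 0.03 with limma-voom and 0.08 without flox LPS replicate 4 and deficient LPS replicate 3. Under PBS the genotype value of Kcnd3 was -0.02 with limma-voom, and that of Kcna5 was -0.03 with limma-voom, -0.02 with the replicate block, 0 without mitochondrial genes and -0.02 with the header-number block. After LPS, Kcnd2 was -0.01 with the replicate block; without flox LPS replicate 4 and deficient LPS replicate 3, Kcnip2 was -0.08, Kcnd2 -0.01 and Kcnh2 0.02; without flox LPS replicate 3 and deficient LPS replicate 4, Kcnd2 was -0.12 and Kcnd3 -0.01. In the interaction the first pair left out gave Kcnh2 0.00 and Kcnk3 -0.02, and the second gave Kcnd3 -0.21 and Kcnj2 -0.16. Leaving out 1 library gave these ranges. Deficient LPS: Kcnd3 -0.49 to 0.71. Genotype under PBS: Kcnd3 -0.70 to 0.45, Kcna5 -0.23 to 0.18, Kcnj3 -0.15 to 0.10, Kcnq1 -0.02 to 0.16 and Kcnh2 -0.04 to 0.10. Genotype after LPS: Kcnip2 -0.06 to 0.07, Kcnd2 -0.08 to 0.09, Kcna5 -0.13 to 0.02, Kcnh2 -0.32 to 0.21 and Kcnk3 -0.05 to 0.49. Interaction: Kcnd3 -0.04 to 1.16, Kcna5 -0.25 to 0.17, Kcnj2 -0.15 to 0.22, Kcnh2 -0.33 to 0.19 and Kcnk3 -0.09 to 0.45.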

Other observations

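Kcnk3 and Gm9899, its neighbour on the opposite strand, both had lower levels after LPS, and the ratio of their counts was looked at after the values were seen. It was 11.4 ± 1.13 in flox PBS and 17.2 ± 2.45 in flox LPS hearts, and 10.6 ± 0.874 and 9.59 ± 1.36 in the deficient groups (SD, n = 4). The LPS libraries ranged from 15 to 20.5 in flox and from 7.78 to 11 in deficient hearts. This difference was not tested.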
